A study of Mus musculus with 9 samples.

Results

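Melanopsin (*Opn4*), the other nonvisual opsins and the genes that melanopsin cells use to develop and to signal were measured as 10 named genes among the 25239 gene names listed for the whole retina. The genes were taken by symbol, and values on rows with the same symbol were added. They comprised 5 opsin genes (*Opn4*, *Opn3*, *Opn5*, *Rrh* and *Rgr*), the transcription factor genes *Eomes* and *Tbx20*, the channel genes *Trpc6* and *Trpc7*, and the phospholipase gene *Plcb4*. Whole retinas of C57BL/6J mice at P42 were sequenced as bulk RNA, with a pair of retinas from 1 mouse in each of 9 libraries. The wild type mice (+/+) were littermates of heterozygous *Rbpms*-CreERT2/+ mice (Cre/+) and homozygous *Rbpms*-CreERT2/CreERT2 mice (Cre/Cre), with 3 libraries per genotype. The knock-in allele carried a P2A-CreERT2 cassette joined to the end of the *Rbpms* coding sequence, so that Cre follows *Rbpms*, which the retina makes in its ganglion cells and which smooth muscle makes elsewhere. The labels gave no tamoxifen treatment for these mice. All mice of the series came from a single knock-in line, and the +/+ mice carried no cassette.

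Melanopsin is the photopigment of the intrinsically photosensitive retinal ganglion cells (ipRGCs), a small minority of ganglion cells that drive circadian entrainment and the pupil reflex. Unlike the visual opsins, it signals through a Gq-type G protein and phospholipase C to open TRPC channels. PLCB4, TRPC6 and TRPC7 are the effectors named for this cascade in mouse ipRGCs. EOMES (also called TBR2) is a T-box factor that ipRGCs need to form and to persist, and TBX20 is a further T-box factor of these cells. Encephalopsin (*Opn3*) and neuropsin (*Opn5*) are opsins of neurons and other cells, and neuropsin absorbs violet and ultraviolet light. Peropsin (*Rrh*) and the RGR opsin (*Rgr*) bind retinal and belong to the visual cycle, with *Rgr* known from the retinal pigment epithelium (RPE) and Mueller glia.

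In these libraries *Opn4* was lower on average in Cre/+ and Cre/Cre than in +/+ retinas, but neither difference passed the test across all genes, and none of the other 8 tested genes passed it in any comparison. *Rgr* differed up to 6.08-fold between libraries, along with the RPE genes *Ttr* and *Rpe65*, and *Rrh* did not follow it. *Opn5* was at the edge of detection.

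The upstream sequences of 3 of the opsin genes are shown for reference. RefSeq windows of GRCm38.p6, the assembly of mm10, were found for 9 of the 10 genes. For *Opn4*, *Rgr* and *Rrh*, the bases from 250 to 101 before the annotated start are printed 5′ to 3′ on the strand of the gene, which is the minus strand for all 3. Capitals mark the core of CRX and OTX2 sites (TAATCC, or GGATTA on the other strand) and the core of T-box sites (GGTGTG, or CACACC on the other strand).
Opn4, chr14:34600243-34600392: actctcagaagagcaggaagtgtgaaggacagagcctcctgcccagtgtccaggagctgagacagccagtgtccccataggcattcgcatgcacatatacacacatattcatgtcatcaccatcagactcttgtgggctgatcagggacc
Rgr, chr14:37049115-37049264: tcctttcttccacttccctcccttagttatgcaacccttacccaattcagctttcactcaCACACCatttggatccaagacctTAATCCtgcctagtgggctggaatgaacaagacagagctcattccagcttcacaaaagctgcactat
Rrh, chr3:129822606-129822755: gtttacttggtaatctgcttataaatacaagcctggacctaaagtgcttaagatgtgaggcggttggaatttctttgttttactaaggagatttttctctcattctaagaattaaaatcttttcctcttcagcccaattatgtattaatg
Within the full 250 bases before the start, the *Rgr* window held 1 CRX/OTX2 core, 167 bases before the start, and 1 T-box core, 190 bases before it, without overlap. The *Opn4* and *Rrh* windows held neither core. Among all 32851 RefSeq windows of the same length, 6.25% held the CRX/OTX2 core and 16.3% the T-box core. Of the other members, *Trpc7* alone held a T-box core, 224 bases before its start, and none held the CRX/OTX2 core.

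The libraries were checked before the genes were compared. They held an estimated 4.05 to 4.65 aligned gigabases, which would equal 27.0 to 31.0 × 10⁶ reads if each read had 150 bases. The markers of retinal neurons were present, the lowest being the horizontal cell gene *Lhx1* with a mean of 6.80 TPM (a level per length of transcript, scaled to the total of the library). *Rbpms* itself, the gene that carries the cassette, had means of 41.7 ± 2.85 TPM for +/+, 32.2 ± 0.888 for Cre/+ and 21.0 ± 2.80 for Cre/Cre (± SD, n = 3 each). Its difference from +/+ passed the test across all genes in Cre/Cre (log2 fold change -0.96, limma adjusted p = 0.000581) and not in Cre/+ (-0.36, adjusted p = 0.355), and the knock-in groups differed by -0.60 (adjusted p = 0.0567). Rn45s, the ribosomal RNA precursor, made up 9.21% of Cre/Cre replicate 1 and no more than 0.336% of any other library. *Xist*, the RNA that coats the silenced X chromosome of females, stood at 516 to 585 TPM in 6 libraries and between 2.08 and 3.16 TPM in Cre/+ replicate 3, Cre/Cre replicate 1 and Cre/Cre replicate 3. All 3 +/+ libraries were among those with high *Xist*, so that genotype and the *Xist* level were in part confounded.

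Detection was complete for 9 of the 10 genes. These 9 were above 0 in all 9 libraries, and 8 of them reached 1 TPM in every library. *Tbx20* fell under 1 TPM only in Cre/Cre replicate 1, at 0.772 TPM. *Opn5* was above 0 in 6 of 9 libraries and never reached 1 TPM.

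Over the 9 libraries *Plcb4* had the highest mean level, 92.5 TPM, followed by *Rrh* at 33.5, *Rgr* at 8.19, *Eomes* at 6.51 and *Opn4* at 4.08 TPM. *Trpc6* (3.62 TPM), *Trpc7* (3.39), *Opn3* (2.35), *Tbx20* (1.48) and *Opn5* (0.284) were lower. All 5 nonvisual opsins were thus far below the cone opsins, since the genes *Opn1sw* and *Opn1mw* had means of 617 and 332 TPM in +/+ retinas. In the +/+ libraries the order by TPM was *Plcb4*, *Rrh*, *Eomes*, *Rgr*, *Opn4*, *Trpc7*, *Trpc6*, *Opn3*, *Tbx20* and *Opn5*. Neighbours in this order whose +/+ values overlapped were *Eomes* and *Rgr*, *Rgr* and *Opn4*, and *Trpc7* and *Trpc6*. Over all 9 libraries *Opn4* also overlapped with *Trpc7*, and *Opn3* with *Tbx20*. The order depended on the measure. By the deposited coverage, the mean read depth over a gene, *Plcb4* (9.72 to 15.3) lay below *Rrh* (29.7 to 56.0) over the 9 libraries. In +/+ replicates 1 to 3 *Trpc6* had a coverage of 2.66, 2.83 and 3.11, below *Opn3* at 2.87, 3.68 and 3.30. Why the measures differ for these genes was not tested.

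**Figure D1:**
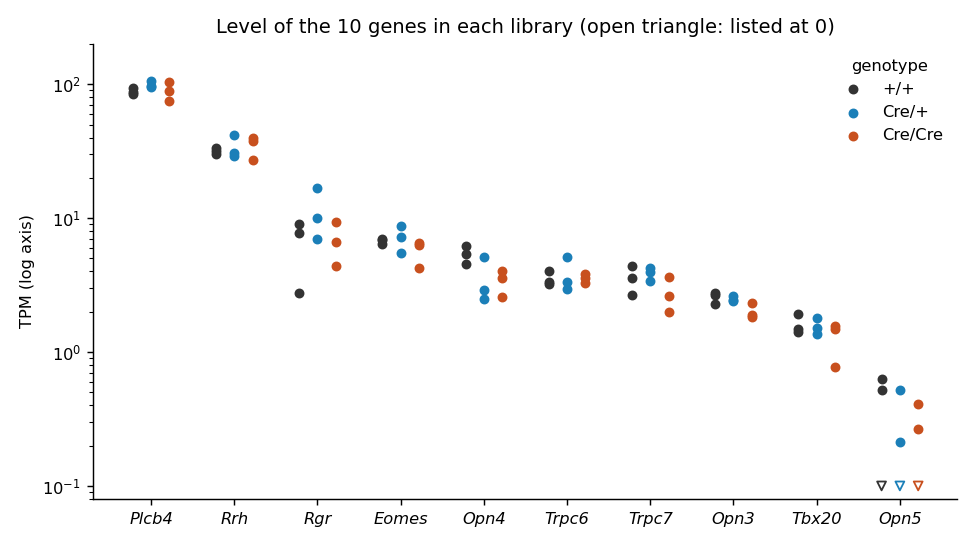
TPM (log axis) of the 10 genes in each of the 9 libraries, coloured by genotype, with open triangles for libraries in which a gene was listed at 0. *Plcb4* lay at 75.5 to 106 TPM and *Opn4* at 2.51 to 6.19 TPM, and *Opn5* alone had libraries at 0.

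*Opn4* encodes melanopsin and occupies bases 34590618 to 34600142 of chromosome 14 in mm10, on the minus strand. On the same strand it lies 1937 bases from *Ldb3*, with a mean of 2.00 TPM. Whether reads of this neighbour enter the value of *Opn4* was not tested. *Opn4* measured 4.52, 5.37 and 6.19 TPM in +/+ replicates 1 to 3. In Cre/+ it measured 2.89, 2.51 and 5.14 TPM, and in Cre/Cre 4.01, 3.58 and 2.57 TPM. All 3 Cre/Cre libraries lay below all 3 +/+ libraries, whereas in Cre/+ replicates 1 and 2 lay below them and replicate 3 lay within their range. Group means were 5.36 ± 0.834 TPM for +/+, 3.51 ± 1.42 for Cre/+ and 3.39 ± 0.738 for Cre/Cre (± SD, n = 3 each), so that Cre/+ stood at 65.5% and Cre/Cre at 63.2% of the +/+ mean.

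Differences were taken on log2(TPM + 1), where the added 1 shrinks the changes of genes at low levels. For *Opn4*, Cre/+ differed from +/+ by -0.53 (standard error 0.21, 95% interval -0.98 to -0.08) and Cre/Cre by -0.54 (standard error 0.21, 95% interval -0.996 to -0.09). With p-values adjusted over the 15198 genes tested, neither passed the limit of 0.05 (limma, adjusted p = 0.41 for Cre/+ and 0.655 for Cre/Cre, unadjusted p = 0.0245 and 0.0222). These comparisons share the +/+ libraries. Cre/Cre and Cre/+ differed by -0.01 (95% interval -0.46 to 0.44, adjusted p = 0.994), and the trend was -0.27 per knock-in allele (adjusted p = 0.767). With *Xist* as a covariate, the differences were -0.63 in Cre/+ and -0.75 in Cre/Cre, and without Rn45s they were -0.53 and -0.51. Among the libraries with high *Xist*, they were -0.78 and -0.47, the latter from a single Cre/Cre library. In whole retina, fewer cells that make melanopsin and less *Opn4* RNA per cell cannot be told apart.

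*Opn3* encodes encephalopsin and lies on the minus strand of chromosome 1, from 175662421 to 175692632. It measured 2.27, 2.66 and 2.75 TPM in +/+, 2.41, 2.45 and 2.60 in Cre/+, and 1.83, 2.32 and 1.88 in Cre/Cre. The highest Cre/Cre value lay just above the lowest +/+ value, so that the groups overlapped, and Cre/Cre stood at 78.6% of the +/+ mean. The log2 difference was -0.24 in Cre/Cre (95% interval -0.62 to 0.13, adjusted p = 0.858) and -0.03 in Cre/+ (adjusted p = 0.967, limma). *Opn3* overlaps *Chml*, a gene of the same strand with a mean of 8.47 TPM, so that the assignment of reads between them, and with it the level of *Opn3*, is uncertain.

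*Opn5* encodes neuropsin and lies on the minus strand of chromosome 17, from 42556783 to 42611313. It was listed at 0 in +/+ replicate 2, Cre/+ replicate 2 and Cre/Cre replicate 1, that is, in 1 library of each genotype. The other values were 0.627 and 0.519 TPM in +/+, 0.214 and 0.521 in Cre/+, and 0.411 and 0.266 in Cre/Cre. The highest value came from at most 5.29 reads per kilobase of transcript. The slope over knock-in alleles was -0.078 TPM per allele (two-sided exact permutation test over 1680 arrangements, p = 0.46), and no difference between genotypes was detectable at this depth.

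*Rrh* encodes peropsin and lies on the minus strand of chromosome 3, from 129808575 to 129822505. It measured 33.5, 31.9 and 30.01 TPM in +/+, 41.5, 29.0 and 30.9 in Cre/+, and 27.1, 37.9 and 39.8 in Cre/Cre. The +/+ libraries were close together, and both knock-in groups reached below and above them. Relative to +/+, the log2 difference was 0.07 in Cre/+ (95% interval -0.27 to 0.41) and 0.11 in Cre/Cre (95% interval -0.23 to 0.46), with limma adjusted p = 0.895 and 0.946. On the same strand, *Rrh* lies 4439 bases from *Lrit3*, with a mean of 100.2 TPM, and 2407 bases from *Gar1*, with 30.3 TPM. Whether reads of these neighbours enter its value was not tested.

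*Rgr* encodes the RGR opsin, which in the visual cycle converts retinal back to its 11-cis form in light, and lies on the minus strand of chromosome 14, from 37034909 to 37049014. It measured 7.78, 8.99 and 2.76 TPM in +/+, 16.7, 10.1 and 6.97 in Cre/+, and 9.38, 6.60 and 4.40 in Cre/Cre. The lowest value was in +/+ replicate 3 and the highest in Cre/+ replicate 1, and the genotypes overlapped. With a coefficient of variation of 48.7% over the 9 libraries, *Rgr* was the most variable of the 9 genes tested, against 15.2% for *Rrh*. Its log2 difference was 0.75 in Cre/+ (95% interval -0.40 to 1.90, adjusted p = 0.592), though 0.31 without +/+ replicate 3 and 0.44 without Cre/+ replicate 1, and 0.12 in Cre/Cre (95% interval -1.03 to 1.27, adjusted p = 0.987, limma).

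Some RPE markers, led by *Ttr* and *Rpe65*, varied between the libraries together with *Rgr*, and for 6 of 10 markers no relation with it was detected over the 9 libraries. The summed TPM of 10 RPE markers, a list that does not hold *Rgr*, ranged from 20.3 to 47.1 in +/+, from 33.5 to 80.8 in Cre/+ and from 25.0 to 47.5 in Cre/Cre. Of the 10 markers 6 had a mean of at least 1 TPM, led by *Ttr*, the retinol carrier transthyretin, at 28.6 TPM. The lowest, *Mlana*, had a mean of 0.182 TPM. It was listed at 0 in all 6 knock-in libraries and ranged from 0 to 1.19 TPM in +/+. *Rpe65*, the retinoid isomerase that defines the RPE, ranged from 1.03 TPM in +/+ replicate 3 to 11.6 TPM in Cre/+ replicate 1, the same libraries that held the lowest and the highest *Rgr*. Across the 9 libraries, log2(TPM + 1) of *Rgr* and of the summed markers had a Pearson r of 0.987 (permutation p = 6e-05, adjusted p = 0.00048 over 8 relations) and a Spearman coefficient of 0.983 (permutation p = 2e-05, adjusted p = 0.00016). Pearson r was 0.970 without +/+ replicate 3 and Cre/+ replicate 1, the libraries farthest from the median of *Rgr*, and 0.996 within the 6 libraries with high *Xist*, while the other 3 were too few for a value. *Ttr* made up 55.9% to 69.95% of the sum in each library, so the sum was taken again without it and each marker was set against *Rgr* alone, as 11 further relations chosen after seeing the data. Without *Ttr* the r was 0.919 (permutation p = 0.00133, adjusted p = 0.00488 over 11 relations, Spearman coefficient 0.883, adjusted p = 0.0113), 0.909 without the 2 farthest libraries and 0.968 within the libraries with high *Xist*. Alone, *Ttr* had an r of 0.993 and *Rpe65* of 0.978 (permutation tests, adjusted p = 0.00011 and 0.000385). *Lrat*, which makes the retinyl esters that RPE65 uses, had 0.801 (permutation, adjusted p = 0.0349), but 0.117 without the 2 farthest libraries. *Tyr*, the tyrosinase gene of pigment synthesis, had 0.756 (permutation, adjusted p = 0.0342) and 0.524 without them. Their Spearman coefficients were 0.983, 0.917, 0.567 and 0.767, with adjusted permutation p of 0.00066, 0.0066, 0.221 and 0.061. The other 6 were the pigment cell genes *Dct*, *Tyrp1*, *Pmel*, *Slc45a2* and *Mlana* and the chloride channel gene *Best1*. They had r of -0.277 to 0.534 (permutation, adjusted p of at least 0.234) and Spearman coefficients of -0.365 to 0.633 (adjusted p of at least 0.168). Without the 2 farthest libraries *Dct* had an r of 0.885, and the rest of these 6 had 0.0513 to 0.584. *Best1*, *Mlana* and *Slc45a2* had means under 1 TPM in each genotype, which limits what could be detected. The part of RPE tissue carried along with the retinas in the *Rgr* values was not tested.

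*Rrh* did not follow the markers. Its Pearson r with the summed RPE markers was 0.14 (permutation p = 0.709, adjusted p = 0.852, Spearman coefficient -0.0333) and with *Rgr* it was 0.13 (permutation p = 0.734, adjusted p = 0.852, Spearman coefficient -0.0833). The ratio of *Rrh* to *Rgr* TPM ranged from 2.48 in Cre/+ replicate 1 to 10.9 in +/+ replicate 3. Leaving out the 2 libraries farthest from the median turned both r negative (-0.0891 and -0.861), and within the libraries with high *Xist* they were 0.545 and 0.522, so that no relation of *Rrh* held across these choices. Mueller glia, which also make *Rgr*, were represented by 6 markers. These ranged from 3080 TPM for the glutamine synthetase gene *Glul* to 83.1 TPM for the water channel gene *Aqp4*. Their summed TPM was 4983 to 5583 in +/+, 5100 to 5297 in Cre/+ and 4546 to 5266 in Cre/Cre. The relation of *Rgr* with these markers was not tested.

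**Figure D2:**
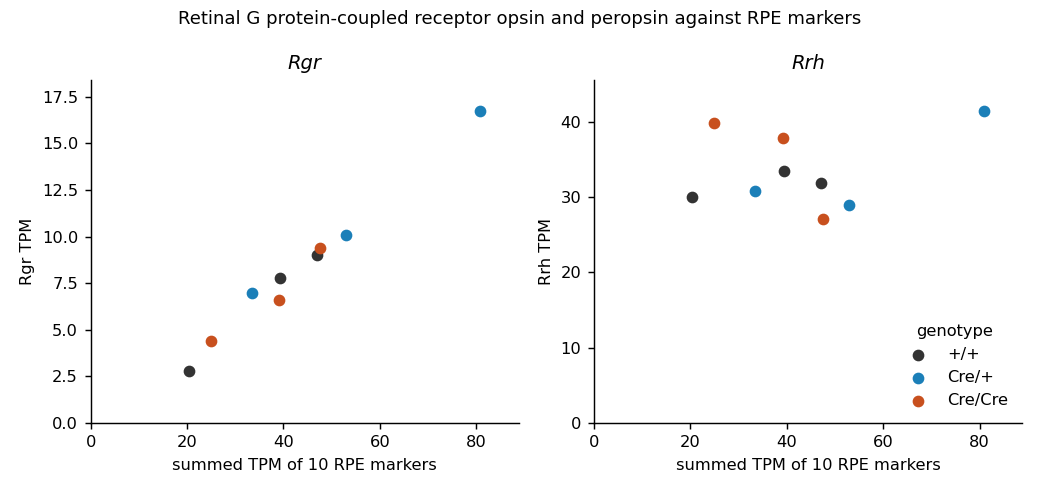
TPM of *Rgr* (left) and *Rrh* (right) against the summed TPM of 10 RPE markers in the same library, 1 point per library, coloured by genotype. *Rgr* rose along the markers from 2.76 to 16.7 TPM, whereas *Rrh* stayed between 27.1 and 41.5 TPM with no order along the axis.

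*Plcb4* encodes the phospholipase C of the melanopsin cascade, an enzyme that other retinal neurons make as well, and lies on the plus strand of chromosome 2, from 135659547 to 136014593. It measured 94.1, 85.3 and 88.2 TPM in +/+, 96.4, 95.3 and 106 in Cre/+, and 75.5, 88.5 and 104 in Cre/Cre. All 3 Cre/+ libraries lay above all 3 +/+ libraries, whereas the Cre/Cre libraries reached both below and above them. Relative to +/+, the log2 difference was 0.15 in Cre/+ (95% interval -0.06 to 0.36, adjusted p = 0.575) and -0.01 in Cre/Cre (95% interval -0.22 to 0.20, adjusted p = 0.996, limma).

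*Trpc6* and *Trpc7* encode the cation channels that carry the melanopsin response. *Trpc6*, on the plus strand of chromosome 9 from 8544142 to 8680741, measured 3.33, 3.20 and 4.04 TPM in +/+, 2.98, 3.33 and 5.10 in Cre/+, and 3.83, 3.55 and 3.25 in Cre/Cre. *Trpc7*, on the minus strand of chromosome 13 from 56773098 to 56895789, measured 3.55, 2.68 and 4.38 TPM in +/+, 4.27, 3.39 and 3.96 in Cre/+, and 2.00, 2.63 and 3.64 in Cre/Cre. Genotypes overlapped for both genes. For *Trpc6* the log2 differences were 0.07 in Cre/+ and 0.01 in Cre/Cre (95% intervals -0.33 to 0.46 and -0.38 to 0.40). For *Trpc7* they were 0.12 and -0.28 (95% intervals -0.31 to 0.54 and -0.70 to 0.15), with limma adjusted p of at least 0.858 for both genes in both comparisons.

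*Eomes*, the T-box factor of ipRGCs, lies on the plus strand of chromosome 9, from 118478189 to 118486132. It measured 6.82, 6.93 and 6.43 TPM in +/+, 7.24, 5.48 and 8.69 in Cre/+, and 4.24, 6.52 and 6.28 in Cre/Cre. The +/+ libraries varied least (coefficient of variation 3.96%, against 22.6% in Cre/+ and 22.1% in Cre/Cre), and the lowest value was in Cre/Cre replicate 1, the library with the large share of Rn45s. Relative to +/+, the log2 difference was 0.06 in Cre/+ (95% interval -0.32 to 0.43, adjusted p = 0.928) and -0.23 in Cre/Cre (95% interval -0.60 to 0.14, adjusted p = 0.864, limma), and without Cre/Cre replicate 1 the latter was -0.06.

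*Tbx20*, on the minus strand of chromosome 9 from 24720812 to 24774303, measured 1.92, 1.41 and 1.49 TPM in +/+, 1.51, 1.37 and 1.80 in Cre/+, and 0.772, 1.56 and 1.48 in Cre/Cre. Its lowest value was again in Cre/Cre replicate 1, and the genotypes overlapped. Relative to +/+, the log2 difference was -0.02 in Cre/+ (95% interval -0.48 to 0.43, adjusted p = 0.976) and -0.21 in Cre/Cre (95% interval -0.67 to 0.24, adjusted p = 0.903, limma), and without Cre/Cre replicate 1 the latter was -0.04.

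**Figure D3:**
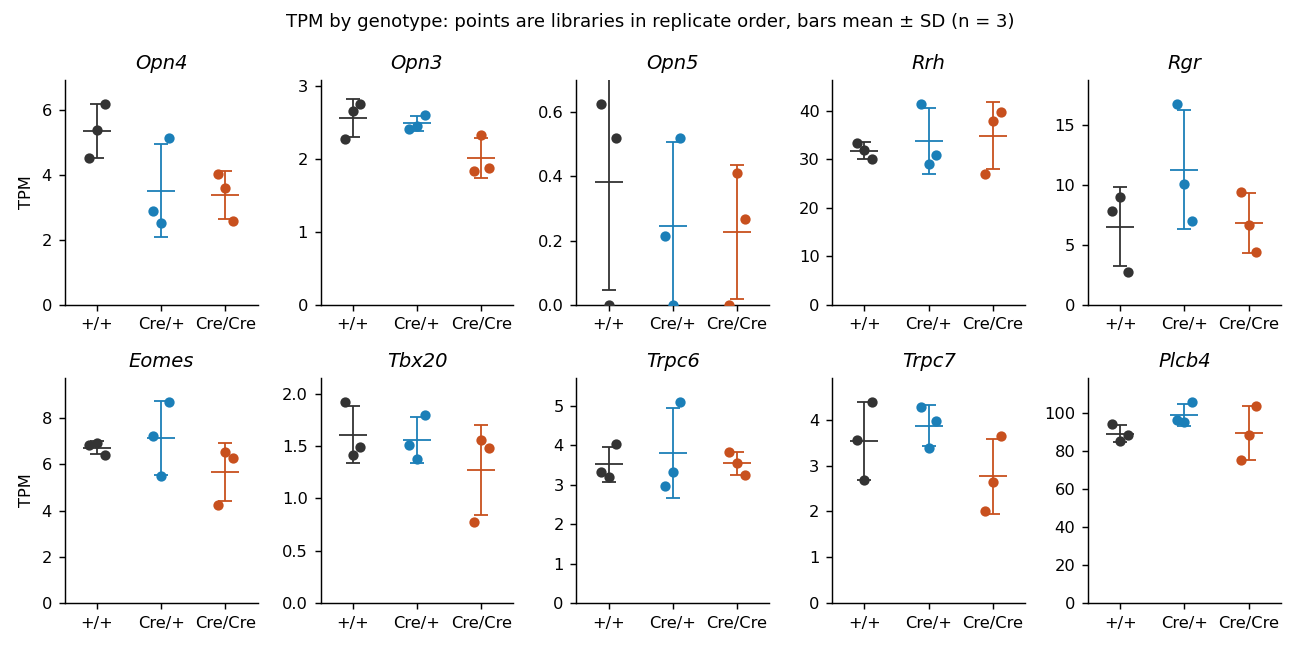
TPM of each gene by genotype, with 1 point per library in replicate order and bars for the mean and SD (n = 3). Only *Opn4* had all Cre/Cre points below all +/+ points, and only *Plcb4* had all Cre/+ points above them.

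Of the 9 genes tested, 0 were called at an adjusted p of at most 0.05 (limma) when Cre/+ or Cre/Cre was set against +/+, when the knock-in groups were set against each other, for any difference by genotype, or for the trend over alleles. The shares of all genes called were 0.00658%, 0.00658%, 0.0132%, 0.0132% and 0.00658%, so that a count of 0 among 9 genes was near the background. At an unadjusted p under 0.05, 1 of 9, *Opn4*, was reached in Cre/+ and 1 of 9, again *Opn4*, in Cre/Cre, against 10.7% and 6.97% of all genes. *Opn4* lost even this unadjusted level without +/+ replicate 2 or +/+ replicate 3 in both genotypes, without Cre/+ replicate 1 or Cre/+ replicate 2 in Cre/+, and without Cre/Cre replicate 3 in Cre/Cre. Without Cre/Cre replicate 1, *Rrh* reached it in Cre/Cre (log2 difference 0.28, limma adjusted p = 0.52). In Cre/+ it was reached by *Plcb4* when only the genotypes compared were fitted (0.15, adjusted p = 0.266) and by *Rgr* with the replicate number as a block (0.75, adjusted p = 0.48). Libraries lay wholly below those of +/+ for 10.3% of all genes in Cre/+ and 8.05% in Cre/Cre, with 0 and 1 of the 9 genes, and wholly above for 11.9% and 2.7%, with 1 and 0 of the 9 genes. The median log2 difference of the 9 genes was 0.07 in Cre/+ and -0.21 in Cre/Cre, beside 0.00 and -0.02 over all genes tested. Without Cre/Cre replicate 1 the latter median was -0.06.

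**Figure D4:**
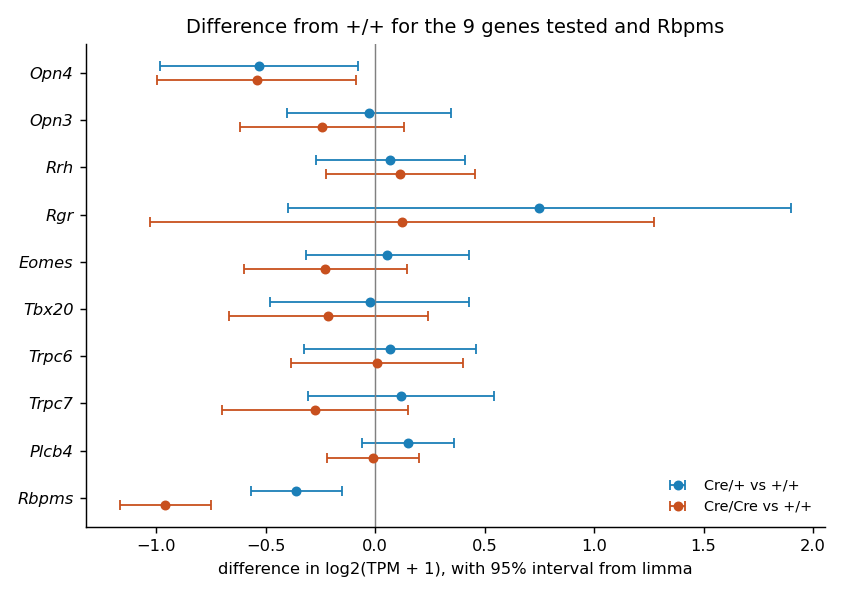
Difference from +/+ in log2(TPM + 1), with the 95% interval from limma, for the 9 genes tested and for *Rbpms*, in Cre/+ and Cre/Cre. The unadjusted intervals of *Opn4* and *Rbpms* lay below 0 in both genotypes, and those of the other 8 genes included 0.

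Correlations were used to ask whether *Opn4* and its partner genes varied together between animals. Across the 9 libraries, *Opn4* had a Pearson r of 0.55 with *Trpc6*, 0.29 with *Eomes*, 0.15 with *Tbx20*, 0.02 with *Trpc7* and -0.30 with *Plcb4*, with Spearman coefficients of 0.467, 0.383, 0.25, 0.2 and -0.417. The smallest permutation p of these was 0.121 for *Trpc6*, and adjusted over 8 relations all were at least 0.483 for r and 0.627 for the Spearman coefficient. Without +/+ replicate 3 and Cre/+ replicate 2, the libraries farthest from the median of *Opn4*, r was 0.494 with *Trpc6*, 0.232 with *Eomes*, 0.128 with *Tbx20*, -0.258 with *Trpc7* and -0.237 with *Plcb4*. Within the 6 libraries with high *Xist*, r was 0.568, 0.357, 0.201, 0.0235 and -0.74, in the same order. No relation of *Opn4* with these genes was therefore detected in 9 libraries.

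Among the 15197 other genes tested, those most like *Opn4* over the 9 libraries were *Lcat* and *Nfkbie* (Pearson r of 0.94 each), *Lrrc47* (0.94), *Diablo* (0.94) and *Fbxl18* (0.93), given as a description. *Trpc6*, the nearest member, stood at rank 1245. Those most like *Eomes* were *Ldlrad3* (0.96), *Nipal2* (0.96), *Ubp1* (0.95), *Gpt* (0.95) and *Klhl3* (0.92). *Tbx20* stood at rank 81 to *Eomes*, with r of 0.86, and both were lowest in Cre/Cre replicate 1, while *Opn4* stood at rank 7538. These values share the 9 libraries and their depth.

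The rest of the melanopsin cascade was measured through 19 further genes for G protein subunits, phospholipases, inositol trisphosphate receptors, TRPC channels, arrestins and receptor kinases. Of these 17 were tested, and 0 were called in either comparison with +/+ (limma). The highest was *Trpc1*, a TRPC channel subunit, with a mean of 96.4 TPM, and the lowest was *Gna15*, a G protein subunit of the Gq class, with 0.225 TPM. The median log2 difference was 0.04 in Cre/+ and -0.11 in Cre/Cre. The only gene with an unadjusted p under 0.05 was *Trpc1* in Cre/+, at 108 ± 7.88 TPM against 88.8 ± 4.30 in +/+ (n = 3 each, log2 difference 0.28, limma adjusted p = 0.397). The interval of *Trpc2*, a channel of the vomeronasal organ, was the widest of the list, from -3.13 to 2.44 in Cre/+.

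The ipRGC and ganglion cell list held 14 genes, from the neurofilament gene *Nefl* at 534 TPM to *Adcyap1*, which encodes the ipRGC neuropeptide PACAP, at 4.46 TPM. In Cre/Cre all 14 differences were below 0, with a median of -0.26 beside -0.02 over all genes tested, and 8 had an unadjusted p under 0.05, but 0 were called (limma, smallest adjusted p = 0.126). Among all 15198 genes tested, 8772 were below 0 in Cre/Cre and 6.97% had an unadjusted p under 0.05 in either direction. Below 0 in other lists were 6 of 6 Mueller glia markers (median -0.10) and 9 of 13 mural and endothelial genes (-0.07). The same held for 14 of 15 markers of retinal neurons (-0.11), which include *Rbpms* and *Thy1*. Lower at an unadjusted p under 0.05 were 0, 1 and 4 genes of these lists. The RPE markers went the other way, with 5 of 6 tested above 0 (median 0.19). The 8 genes of the ganglion cell list were the neurofilament genes *Nefh* (-0.42), *Nefl* (-0.23) and *Nefm* (-0.34), the synuclein gene *Sncg* (-0.43) and the surface protein gene *Thy1* (-0.31). With them were the transcription factor genes *Pou4f1* (-0.24), *Pou4f2* (-0.45) and *Isl2* (-0.35). *Nefh*, with the smallest p, measured 104 ± 5.78 TPM in +/+ and 77.6 ± 3.26 in Cre/Cre (n = 3 each), without overlap. *Adcyap1* itself measured 3.83 ± 0.502 TPM in Cre/Cre and 4.12 ± 0.852 in +/+ (log2 difference -0.08). In Cre/+ the median was -0.10, and *Sncg* alone had an unadjusted p under 0.05 (log2 difference -0.21, adjusted p = 0.404).

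The Cre/Cre values of this list moved with particular libraries. Without Cre/Cre replicate 1 the median was -0.17, with 11 of 14 differences below 0 and 7 at an unadjusted p under 0.05. With *Xist* as a covariate 4 genes were at an unadjusted p under 0.05. Without Cre/Cre replicate 2, *Sncg* was called (limma, adjusted p = 0.0479), the single call in this list or the cascade list in a comparison with +/+ under any alternative. Among all genes, 240 of the 1059 with an unadjusted p under 0.05 in Cre/Cre were higher. After median-ratio scaling 551 of 1267 were, so that the balance of directions over all genes depended on the scaling. The ganglion cell list then had a median of -0.23, with 14 of 14 differences below 0 and 7 at an unadjusted p under 0.05. Without Rn45s its median was -0.21, with 13 of 14 below 0 and 7 at that level. *Kdr*, a growth factor receptor gene of endothelium, was the 1 of 13 tested mural and endothelial genes with an unadjusted p under 0.05 in Cre/Cre (log2 difference -0.29, limma adjusted p = 0.624), and *Apoe*, a lipid carrier gene, was the 1 of 6 Mueller glia markers in Cre/+ (-0.22, adjusted p = 0.44). Of the cone opsins, *Opn1sw* reached an unadjusted p under 0.05 in Cre/Cre (-0.18, limma adjusted p = 0.679). *Arr3*, the cone arrestin gene, differed in the other direction (0.30, adjusted p = 0.542), and *Grm6*, the glutamate receptor gene of ON bipolar cells, was at -0.23 (adjusted p = 0.67), both also at an unadjusted p under 0.05.

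**Figure D5:**
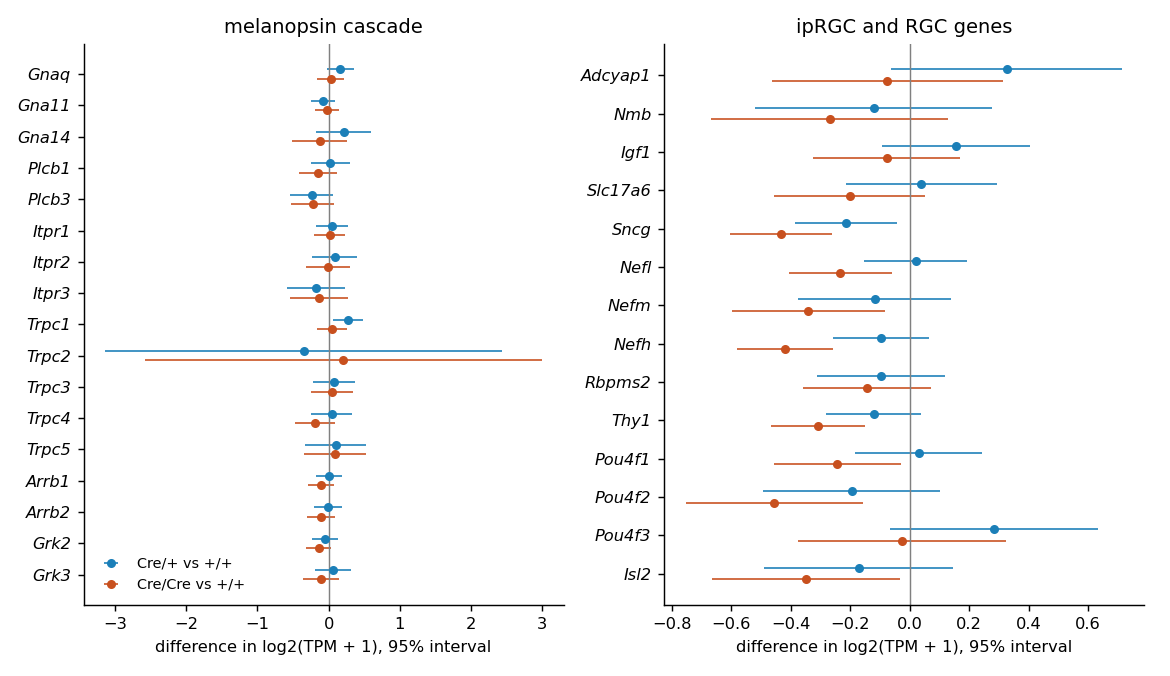
Difference from +/+ in log2(TPM + 1), with the 95% interval from limma, for 17 genes of the melanopsin cascade (left) and 14 ipRGC and ganglion cell genes (right), in Cre/+ and Cre/Cre, on axes that differ between the panels. In Cre/Cre the ganglion cell genes all lay below 0, with a median of -0.26, and the cascade genes lay on both sides of 0.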

How the data were processed

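Bulk RNA-Seq of P42 retinas was used from 3 +/+, 3 Cre/+ and 3 Cre/Cre mice, grouped by their labelled genotype. The authors prepared poly(A)-selected, strand-specific libraries, used Trimmomatic for trimming, HISAT2 for alignment to mm10, and StringTie for the level of each gene. Versions and annotation are not given in the sources used here. The deposited TPM are scaled to the same total in every library. The deposited FPKM, per length and sequencing depth, served as an alternative. The deposited coverage, the mean read depth over a gene, served with FPKM to estimate aligned bases. The tables used here hold no read counts, so the authors' DESeq2 comparison was not repeated and counting error per gene is unknown.

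TPM were summed by gene symbol. The 15198 genes with a mean of at least 1 TPM over 9 libraries were tested with limma 3.58.1 in R 4.3.3 (trend, robust prior) on log2(TPM + 1), with genotype as the only term and 6 residual degrees of freedom. Benjamini-Hochberg adjustment covered all genes tested, with a limit of 0.05. *Opn5* fell under the filter and was tested by exact permutation. Correlations used 100000 permutations. The script was tested on simulated data. Members and lists were chosen with earlier results of these data known. Named were all members, *Rbpms*, *Xist*, Rn45s, the cone opsins, each list's highest and lowest gene and those at an unadjusted p of at most 0.05, and the 5 genes most like *Opn4* and *Eomes*. *Lhx1*, *Arr3*, *Grm6*, the RPE markers other than *Ttr*, *Trpc2* and neighbouring genes were named after their values were seen. Alternatives were a pseudocount of 0.1, no filter, FPKM, median-ratio scaling, leaving out Rn45s, *Xist* as a covariate, only the genotypes compared, a replicate block, no robust prior, each library left out, and, chosen after seeing the data, only libraries with *Xist* above 100 TPM and RPE markers without *Ttr*. Gene positions came from the deposited tables, and figures from matplotlib 3.10.9 in Python 3.11.15.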

Additional observations from a re-analysis of the deposited data

How the results depend on the processing

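The count of the 9 genes called was 0 in every comparison under every alternative run. *Opn4* stayed below +/+ in Cre/+ (log2 difference -0.78 to -0.37, limma adjusted p of 0.243 to 0.881) and in Cre/Cre (-0.75 to -0.40, adjusted p of 0.468 to 0.998). The count of cascade and ganglion cell genes called in Cre/Cre was 0, and 1 without Cre/Cre replicate 2 (range 0 to 1 with each library left out). With the replicate number as a block, 0 of the 9 genes and 0 pathway genes were called. Over all genes tested, 1 was then called in Cre/+ and 1 in Cre/Cre against +/+, the same counts as without the block. Deviations of same-numbered libraries correlated at -0.116 to 0.128, and those of other pairs at -0.194 to 0.261, so no likeness by number was detected. Whether same-numbered libraries shared a litter or a batch was not tested.

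Some differences that were close to 0 or rested on single libraries changed sign, and the cause was not tested. With each library left out in turn, the log2 differences in Cre/+ ranged from -0.0869 to 0.0128 for *Opn3*, -0.0836 to 0.17 for *Rrh*, -0.0802 to 0.21 for *Eomes*, -0.0910 to 0.0593 for *Tbx20*, -0.12 to 0.19 for *Trpc6* and -0.0266 to 0.25 for *Trpc7*. In Cre/Cre they ranged from -0.32 to 0.39 for *Rgr*, -0.0416 to 0.0896 for *Trpc6* and -0.12 to 0.10 for *Plcb4*. With *Xist* as a covariate *Trpc6* was at -0.0236 in Cre/+ and -0.18 in Cre/Cre, and with FPKM it was at -0.0208 in Cre/Cre. In Cre/Cre *Plcb4* was at 0.0195 after median-ratio scaling and 0.0355 without Rn45s. Among libraries with high *Xist*, *Eomes* was at -0.0802 and *Trpc6* at -0.12 in Cre/+. Without the 2 farthest libraries, r was -0.258 for *Opn4* with *Trpc7*, -0.861 for *Rgr* with *Rrh* and -0.0891 for *Rrh* with the RPE markers. Alternatives that need counts, DESeq2 among them, were not run. The spread of 3 libraries per genotype and the low level of *Opn5* limit what could be detected.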
